A study of Homo sapiens with 8 samples.

Results

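The genes described here are 10 regulators of the G1 phase of the cell cycle, taken by name: the D-type cyclins CCND1, CCND2 and CCND3, their kinases CDK4 and CDK6, the kinase inhibitors CDKN2C, CDKN2D, CDKN1B and CDKN1C, and RB1. They were found by symbol among the 38032 gene identifiers in the data, and 9 of the 10 had enough counts to be tested. HepG2, a line of human hepatocellular carcinoma cells labelled WT, was cultured for 8 days either on flat cultureware (2D-primed, 4 cultures) or on a membrane of porous polystyrene (3D-primed, 4 cultures), in the same medium with glutamine and foetal bovine serum and with no drug. All cultures came from 1 pool of cells of 1 line, they were lifted with trypsin before RNA was extracted, and nothing further is said of what a replicate was, so that p-values measure the spread between these cultures only. The methods state that 3D cultures were seeded at high density so that cells would form layers. They give more cells for an insert of the same plate format than for a 2D well, and the same number for a smaller insert. Which insert size lies behind these libraries is not given in the sources used here. Topography and seeding density therefore cannot be told apart.

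In G1, mitogens raise the D-type cyclins, which bind CDK4 or CDK6. The active kinases phosphorylate the retinoblastoma protein RB1, which then releases E2F factors, and E2F factors switch on cyclin E and the genes of DNA synthesis. The INK4 proteins, such as p18 (CDKN2C) and p19 (CDKN2D), bind CDK4 and CDK6 alone, whereas the CIP/KIP proteins p27 (CDKN1B) and p57 (CDKN1C) bind whole cyclin-kinase complexes and restrain CDK2. Hepatocytes in the liver are mostly quiescent, and cyclin D1 is known as the step at which they commit to a new cycle. Accordingly, the cyclins and kinases are described below as promoters of G1 exit, and the 4 CDKN genes and RB1 as inhibitors.

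The libraries held 21599630 to 27844077 estimated counts. Of the 8 hepatocyte markers examined, 6 were called higher in 3D-primed (among them albumin and AFP) and 2 in 2D-primed cultures (APOB and SERPINA1). The test is given below, and over all genes tested 32.4% and 31.6% were called in these directions. SERPINA1 lost its call without a filter and with the replicate number as a block. The summed level of these markers was 68976 to 75051 CPM (counts scaled to a common library total) in 2D-primed and 96484 to 108487 CPM in 3D-primed libraries. Of 10 markers of other liver cells, 6 fell below the filter, with STAB2 and CD163 listed at 0 in every library, and the sum of the list was 88.1 to 90.3 CPM in 2D-primed and 48.2 to 59.5 CPM in 3D-primed libraries. It came mostly from CD68, a lysosomal protein that macrophages are known for, at 71.8 to 74.4 CPM in 2D-primed and 29.8 to 39.3 CPM in 3D-primed libraries. PDGFRB was higher in 3D-primed and CDH5 in 2D-primed cells, and the part of these genes in the results below was not tested. Mitochondrial genes took 1.40 to 1.81% of counts in 2D-primed and 2.47 to 2.98% in 3D-primed libraries.

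The RefSeq table held an entry for 7 of the 10 members, and CCND1, CCND2 and CDKN1C had none. The only RB1 region, chr13:48476200-48476449, lies inside the gene, so the bases upstream of the RB1 gene start were not read. The 250 bases upstream of the annotated start are shown for both kinases, which changed in opposite directions, and for the inhibitors CDKN2D and CDKN1B, of which the first changed and the second did not pass the test. Capitals mark the E-box CACGTG, the core letters bound by MYC and related factors, and the GC box GGGCGG on either strand, the letters bound by SP1. The regions lie on the minus strand of GRCh38.p14 at chr12:57752311-57752560 for CDK4, chr7:92836574-92836823 for CDK6, and chr19:10568980-10569229 for CDKN2D, and on the plus strand at chr12:12717118-12717367 for CDKN1B. The CDK4 and CDKN1B regions lie within the longer GENCODE bounds given for these genes below. CDK6 has another RefSeq start downstream, which is not shown.
CDK4: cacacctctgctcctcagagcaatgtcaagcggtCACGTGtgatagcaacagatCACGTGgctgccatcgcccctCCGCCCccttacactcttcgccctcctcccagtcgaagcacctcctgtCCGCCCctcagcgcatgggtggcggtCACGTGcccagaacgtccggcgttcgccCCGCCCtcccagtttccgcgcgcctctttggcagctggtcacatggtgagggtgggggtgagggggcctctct
CDK6: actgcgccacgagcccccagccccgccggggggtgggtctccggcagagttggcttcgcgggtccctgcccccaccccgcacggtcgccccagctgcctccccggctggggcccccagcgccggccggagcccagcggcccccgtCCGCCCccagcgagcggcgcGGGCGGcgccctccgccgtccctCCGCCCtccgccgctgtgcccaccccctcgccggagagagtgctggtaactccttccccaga
CDKN2D: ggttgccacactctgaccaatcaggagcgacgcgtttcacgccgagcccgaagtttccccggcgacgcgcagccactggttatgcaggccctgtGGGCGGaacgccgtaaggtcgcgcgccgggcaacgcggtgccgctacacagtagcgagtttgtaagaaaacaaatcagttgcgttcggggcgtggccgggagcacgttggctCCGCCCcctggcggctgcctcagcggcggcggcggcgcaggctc
CDKN1B: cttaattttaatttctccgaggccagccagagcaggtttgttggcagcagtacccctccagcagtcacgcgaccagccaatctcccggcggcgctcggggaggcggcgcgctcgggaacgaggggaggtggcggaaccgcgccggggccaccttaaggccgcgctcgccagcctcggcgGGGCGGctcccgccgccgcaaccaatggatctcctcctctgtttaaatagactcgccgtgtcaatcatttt

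The CDK4 region held 3 E-boxes, which begin 216, 196 and 101 bases upstream of the start, and the other regions printed held none. Among the members' regions not printed, 2 of the 3 RefSeq regions of CDKN2C, which was not called, also held an E-box, beginning 220 and 69 bases upstream of their starts. At least 1 E-box was found in 6.34% and at least 3 in 0.0797% of 35116 RefSeq regions of this length. GC boxes were found 3 times in CDK4 and CDK6, 2 times in CDKN2D and once in CDKN1B, beside 42.6% of all regions with at least 1 and 13.9% with at least 3. No match was found in any of these regions for the E2F letters TTTCCCGC, TTTGGCGC, TTTCGCGC or TTTGCCGC on either strand, which 2.79% of all regions hold. These motifs did not overlap one another in the printed regions, and a match describes the letters only.

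A gene was called where the quasi-likelihood test of edgeR gave a Benjamini-Hochberg adjusted p below 0.05. This held for 63.9% of the 13943 genes tested, with 32.4% called in favour of the 3D-primed cultures and 31.6% in favour of the 2D-primed. Of the 9 members tested, 5 were called, which is near this background share: CCND1, CCND2, CDK6 and CDKN2D were higher in 2D-primed cells and CDK4 was higher in 3D-primed cells. These 5 were also the members whose groups did not overlap, as was so for 59.8% of all genes tested. By role, 4 of 5 promoters of G1 exit were called, and 1 of the 4 inhibitors tested. The median log2 fold change was -0.56 for the promoters and 0.03 for the 4 inhibitors tested, beside 0.01 for all genes tested. Values are CPM after TMM normalisation (which scales libraries by a trimmed mean of gene ratios), as mean ± SD of 4 libraries, and log2 fold changes are 3D-primed over 2D-primed with their standard error (SE). In bulk RNA, fewer cells that express a gene and less RNA per cell cannot be told apart.

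**Figure D1:**
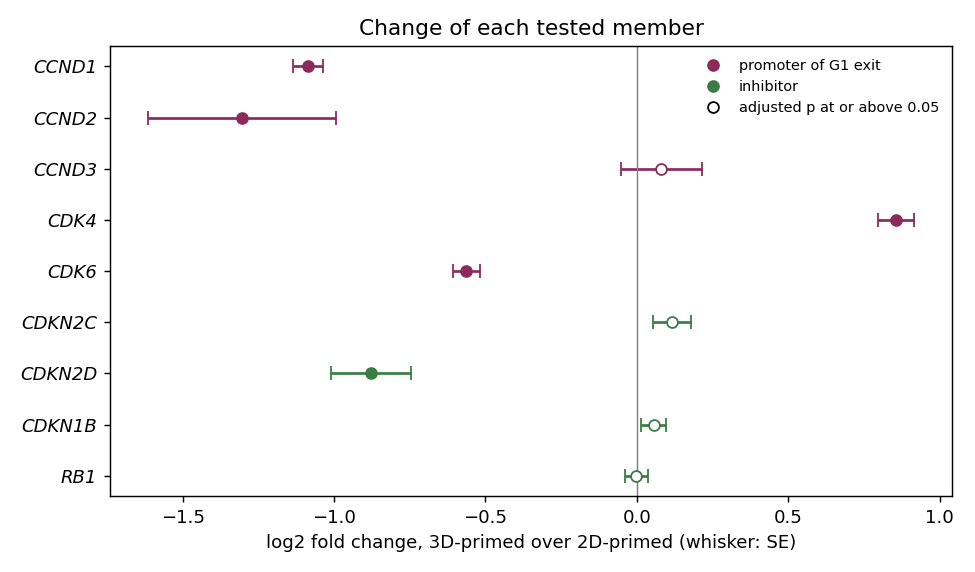
The log2 fold change of each tested member, 3D-primed over 2D-primed, with its standard error as a whisker, promoters of G1 exit in purple and inhibitors in green. CCND1 (-1.09), CCND2 (-1.30), CDK6 (-0.56) and CDKN2D (-0.88) lie to the left and CDK4 (0.85) to the right of 0, while the open points of the other 4 genes lie within 0.12 of it.

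Cyclin D1, the main D-type cyclin of these cells, fell in 3D-primed cultures. Libraries 1 to 4 of the 2D-primed group gave CCND1 (ENSG00000110092, at 69641156 to 69654474 on GRCh38 chromosome 11) 359, 367, 398 and 356 CPM. In 3D-primed replicates 1 to 4 it was 167, 171, 173 and 186 CPM, so that the highest 3D-primed library was far below the lowest 2D-primed one. The means were 370.3 ± 19.3 and 174 ± 8.28 CPM, 2.12-fold higher in 2D-primed cells (edgeR, log2 fold change -1.09, SE 0.0498, adjusted p = 7.7e-08). Of all genes tested, 11.3% had a larger absolute log2 fold change. Omission of any single library left the log2 fold change of CCND1 between -1.12 and -1.05. Its exons share 497 bases with LTO1 on the opposite strand, which was counted at 114 to 223 counts per library against 3873 to 9790 for CCND1.

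Cyclin D2 (CCND2, ENSG00000118971, chromosome 12, from 4269771 to 4305353) was barely expressed. It had 34, 37, 67 and 51 counts in 2D-primed replicates 1 to 4, and 26, 15, 32 and 11 counts in 3D-primed ones. As CPM the groups did not overlap, with 1.56 to 2.73 in 2D-primed and 0.437 to 1.15 in 3D-primed libraries, and the spread was wide for both, at 2.01 ± 0.550 and 0.807 ± 0.318 CPM. The log2 fold change was -1.30 (SE 0.311, edgeR adjusted p = 0.0039). An overlapping protein-coding gene without a symbol (ENSG00000285901) shares 999 exon bases on the same strand, and its counts ran from 0 to 76 between libraries. With its counts added, an alternative chosen after seeing the data, the groups overlapped (2.73 to 5.04 CPM in 2D-primed and 0.981 to 2.90 CPM in 3D-primed libraries), and the log2 fold change was -1.13 (edgeR, adjusted p = 0.0082). The value of CCND2 alone is therefore uncertain.

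Cyclin D3 (CCND3, ENSG00000112576, chromosome 6, from 41934934 to 42050357), the remaining D-type cyclin, did not pass the test. Its 2D-primed libraries had 4.44, 3.98, 4.03 and 3.71 CPM, and its 3D-primed libraries 4.04, 4.91, 3.44 and 4.73 CPM. The groups overlapped, with the wider spread in the 3D-primed libraries. The log2 fold change was 0.08 (SE 0.135, edgeR adjusted p = 0.62), at 88 to 119 counts per library.

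Divided by the length of their exons, the cyclins could be set side by side. CCND1 made up 98.8 ± 0.0512% of the summed D-type cyclin level per kb in 2D-primed cells and 97.7 ± 0.222% in 3D-primed cells. The summed level of the 3 cyclins was 78.7 ± 4.10 CPM per kb in 2D-primed and 37.5 ± 1.76 CPM per kb in 3D-primed cultures, and CCND1 alone went from 77.8 ± 4.04 to 36.6 ± 1.74. The share of CCND3 was 0.893 ± 0.0814% and 1.98 ± 0.288%, with a level per kb of 0.701 and 0.743. CCND1 was thus by far the highest of the 3 cyclins in every library.

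**Figure D2:**
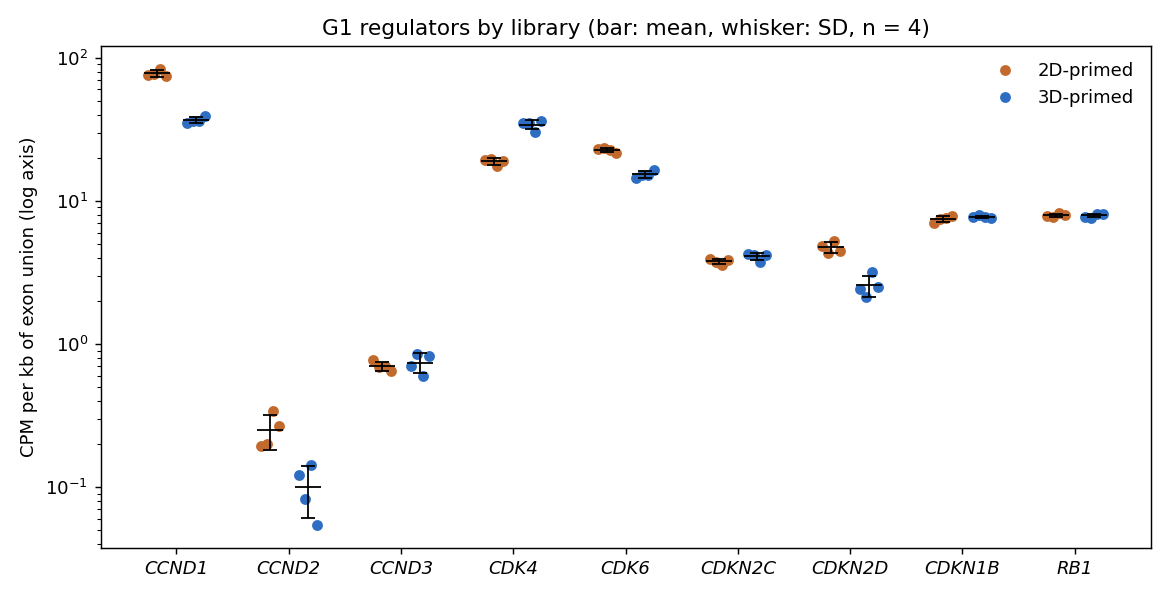
Levels of the 9 tested members in each library as CPM per kb of exon union, on a log axis, with 2D-primed libraries in orange and 3D-primed libraries in blue, bars for the mean and whiskers for the SD of 4. CCND1 is the highest at 77.8 in 2D-primed and 36.6 in 3D-primed cultures, CDK4 and CDK6 move apart, and the points of CDKN1B and RB1 overlap between groups. CDKN1C, listed at 0 in all 8 libraries, is not drawn.

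The kinases of the D-type cyclins moved in opposite directions. CDK4 (ENSG00000135446, chromosome 12, from 57747727 to 57756013) had 59.6, 60.6, 54.2 and 59.0 CPM in 2D-primed replicates 1 to 4, and 108, 108, 94.1 and 112 CPM in 3D-primed ones. Every 3D-primed library was above the highest 2D-primed one, and the lowest of them was replicate 3. The means were 58.3 ± 2.86 and 106 ± 7.86 CPM, a 1.81-fold rise in 3D-primed cells (edgeR, log2 fold change 0.85, SE 0.0599, adjusted p = 9.3e-07). Its exons share 1369 bases with TSPAN31 on the opposite strand, which had 8.16 and 9.58 CPM (edgeR, log2 fold change 0.23, adjusted p = 0.012). With the counts of TSPAN31 added, chosen after seeing the data, the log2 fold change of CDK4 was 0.79.

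CDK6 (ENSG00000105810, chromosome 7, from 92604921 to 92836573) encodes the closely related kinase that cyclin D also activates. It had 281, 285, 276 and 266 CPM in 2D-primed replicates 1 to 4, and 178, 186, 186 and 201 CPM in 3D-primed ones, again without overlap. The means of 277 ± 8.44 and 188 ± 9.59 CPM give 1.48-fold more in 2D-primed cells (edgeR, log2 fold change -0.56, SE 0.0449, adjusted p = 2.2e-06). For either kinase, the groups lay further apart than libraries of 1 group did.

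Set against each other per kb of exon, CDK4 was 0.833 ± 0.0425 times the level of CDK6 in 2D-primed cells and 2.23 ± 0.173 times in 3D-primed cells. The ratio ran from 0.776 to 0.879 in the 2D-primed and from 2.00 to 2.40 in the 3D-primed libraries. Which kinase was the higher in 2D-primed cells depends on the length used, as with the longest transcript in place of the exon union the ratios were 1.32 and 3.52. The summed level of both kinases was 41.5 ± 1.29 CPM per kb in 2D-primed and 49.4 ± 2.89 CPM per kb in 3D-primed cultures, without overlap between groups (40.1 to 42.9 and 45.6 to 52.6). Against this sum, the D-type cyclins stood at 1.90 ± 0.144 in 2D-primed and 0.759 ± 0.0378 in 3D-primed cultures. CCND1 and CDK6 both fell, and CDK4 rose. The summed cyclin level per kb was above the summed kinase level in all 4 2D-primed libraries and below it in all 4 3D-primed ones. This was also so with the longest transcript (1.63 and 0.593). Without division by length CDK6 fell by more CPM than CDK4 rose, so that the rise of the kinase sum depends on that division.

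**Figure D3:**
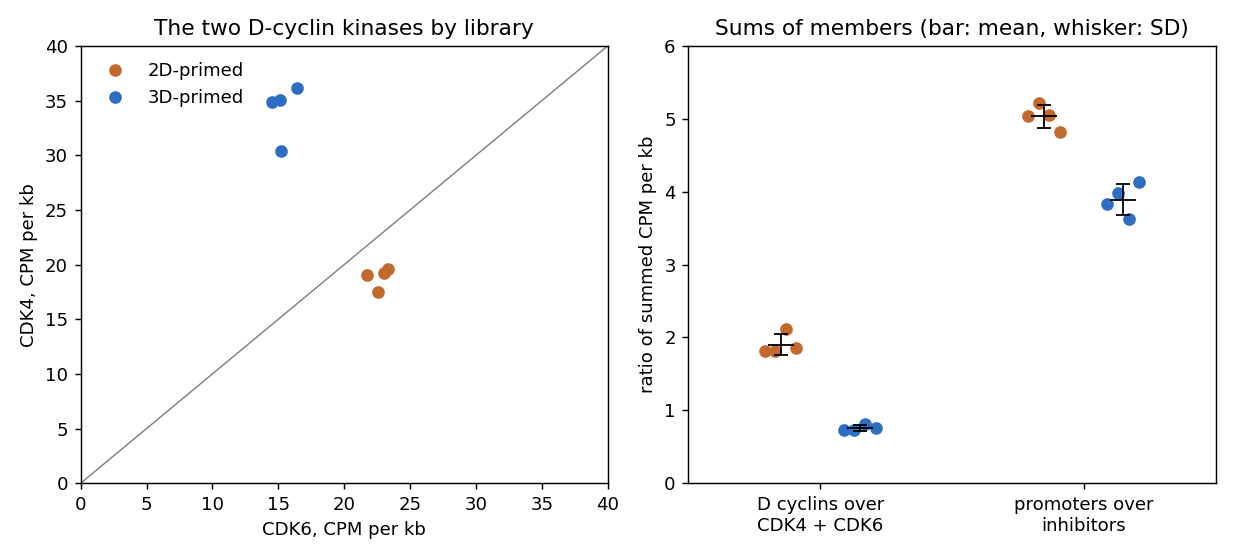
Left, the level of CDK4 against that of CDK6 in each library, both as CPM per kb of exon union, with a grey line where they are equal; the 4 2D-primed libraries (orange) lie below it and the 4 3D-primed libraries (blue) above it. Right, the ratio of summed levels per kb in each library with mean and SD. Shown are D-type cyclins over both kinases (1.90 and 0.759) and promoters of G1 exit over inhibitors, members only (5.03 and 3.89).

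Among the INK4 inhibitors, CDKN2D fell and CDKN2C did not pass the test. CDKN2D (ENSG00000129355, chromosome 19, from 10566460 to 10569059) had 7.33, 6.48, 7.94 and 6.75 CPM in 2D-primed replicates 1 to 4, and 3.66, 3.23, 4.80 and 3.77 CPM in 3D-primed ones. The groups were apart, with 3D-primed replicate 3 the closest to the 2D-primed libraries. The means were 7.13 ± 0.646 and 3.87 ± 0.666 CPM, 1.84-fold higher in 2D-primed cells (edgeR, log2 fold change -0.88, SE 0.131, adjusted p = 1.8e-04), at 73 to 195 counts per library. Without that replicate the log2 fold change was -1.01.

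CDKN2C (ENSG00000123080, chromosome 1, from 50960745 to 50974634) had 11.8, 11.3, 10.8 and 11.7 CPM in 2D-primed and 12.9, 12.6, 11.4 and 12.6 CPM in 3D-primed replicates 1 to 4. Only 3D-primed replicate 3 reached into the 2D-primed range. Its log2 fold change was 0.12 (SE 0.0619, edgeR adjusted p = 0.13), and with upper-quartile scaling it passed the threshold (0.17, adjusted p = 0.038). CDKN2C made up 44.4 ± 2.85% of the summed level per kb of CDKN2C and CDKN2D in 2D-primed and 61.6 ± 5.17% in 3D-primed cultures. The sum of these genes was 8.51 ± 0.368 and 6.66 ± 0.264 CPM per kb.

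The CIP/KIP inhibitor p27 did not pass the test. CDKN1B (ENSG00000111276, chromosome 12, from 12685498 to 12722369) had 64.7, 68.7, 70.8 and 72.2 CPM in 2D-primed and 71.7, 73.5, 71.7 and 70.4 CPM in 3D-primed replicates 1 to 4. The log2 fold change was 0.06 (SE 0.0415, edgeR adjusted p = 0.27), and with upper-quartile scaling it was 0.11 (adjusted p = 0.037). The ratio of CDKN1B to CCND1 per kb was 0.0961 ± 0.00578 in 2D-primed and 0.212 ± 0.0124 in 3D-primed cultures. CDKN1C (ENSG00000129757, chromosome 11, from 2883213 to 2885775), which encodes p57 and is imprinted, was listed at 0 counts in all 8 libraries. A count of 0 allows up to 3 counts, or 0.107 to 0.137 CPM depending on the library, counting error only, and no comparison between groups was possible. Whether the 0 stands for no detectable RNA or for a failed estimate cannot be told from these counts.

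RB1 (ENSG00000139687, chromosome 13, from 48303744 to 48599436), the substrate on which this pathway converges, had 50.1, 49.5, 52.6 and 51.6 CPM in 2D-primed and 49.98, 49.1, 52.3 and 52.2 CPM in 3D-primed replicates 1 to 4. The values interleave, the log2 fold change was -0.0018 (SE 0.0385, edgeR adjusted p = 0.97), and its sign changed with the scaling. RNA does not report the phosphorylation of the protein, which was not measured here.

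Summed by role, the 5 promoters of G1 exit had 120.2 ± 3.51 CPM per kb in 2D-primed and 86.9 ± 4.20 CPM per kb in 3D-primed cultures. The 5 inhibitors had 23.9 ± 0.667 and 22.3 ± 0.391 CPM per kb. Promoters thus stood at 4.82 to 5.21 times the inhibitors in 2D-primed libraries and at 3.62 to 4.13 times in 3D-primed libraries, without overlap. These sums are dominated by CCND1, CDK4 and CDK6 and are given as a description, without a test. They leave out the inhibitor CDKN1A, described below, which is not a member. Before division by length, its 2D-primed mean of 104.6 CPM exceeded that of each inhibitor member, CDKN1B being next at 69.1 CPM. 3D priming left CDKN1A 2.04-fold lower. A ratio that counts CDKN1A was not computed, so the change in the ratio is given for the members only.

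Of the 3 other CDK inhibitors examined, CDKN1A, which encodes the p53 target p21, was higher in 2D-primed cells, with 93.8 to 115.5 CPM against 49.8 to 53.7 CPM (edgeR, log2 fold change -1.03, SE 0.0745, adjusted p = 1.2e-06). The INK4 genes CDKN2A and CDKN2B were at 1.55 and 1.496 CPM (CDKN2A) and at 0.857 and 0.543 CPM (CDKN2B) in 2D-primed and 3D-primed means and were not called (edgeR, adjusted p of 0.84 and 0.062).

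Of the 7 genes of cyclin E, CDK2 and their activators, 3 were called, all higher in 3D-primed cells, a share of 42.9% beside 63.9% of all genes tested. Cyclin E1 (CCNE1), the E2F target that takes over from cyclin D at the end of G1, had 8.87 to 12.0 CPM in 2D-primed and 15.9 to 18.9 CPM in 3D-primed libraries (edgeR, log2 fold change 0.65, SE 0.0982, adjusted p = 2.0e-04). The phosphatase CDC25A, which activates CDK2, had a log2 fold change of 0.34 and MNAT1, a subunit of the CDK-activating kinase, of 0.32 (edgeR, adjusted p of 0.0043 and 5.9e-04). CDK2 itself, at 24.4 ± 0.510 and 25.95 ± 1.48 CPM, was not called (edgeR, adjusted p = 0.15).

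Of 17 genes of the pocket proteins, the E2F family and the DREAM complex, which silences cycle genes in quiescent cells, 9 rose and 2 fell in 3D-primed cells, and the median log2 fold change was 0.15. The share called, 64.7%, was near the 63.9% of all genes tested. TFDP1, a dimer partner of E2F factors, rose from 33.8 ± 3.15 to 58.1 ± 6.29 CPM (edgeR, log2 fold change 0.78, adjusted p = 2.3e-05). The repressor E2F5 (0.71) and the histone-binding RBBP4 (0.70) rose as well, and the activator E2F3 (-0.46) and the DREAM subunit LIN54 (-0.63) fell, all on the log2 scale. Their adjusted p in edgeR were 6.3e-06, 6.6e-07, 5.2e-04 and 3.7e-04. The other pocket proteins RBL1 and RBL2 had log2 fold changes of -0.10 and 0.07 and, like RB1, were not called (edgeR, adjusted p of 0.11 and 0.10).

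Of 15 genes that act on the turnover of D-type cyclins and p27, 7 rose and 4 fell in 3D-primed cells, or 73.3% called beside 63.9% of all genes tested. SKP2, the F-box protein that directs p27 to degradation, had 24.9 to 32.2 CPM in 2D-primed and 55.8 to 60.4 CPM in 3D-primed libraries (edgeR, log2 fold change 0.97, SE 0.0716, adjusted p = 1.3e-06). FBXO4, reported to act on cyclin D1, had a log2 fold change of 0.83 and UBAC1, a subunit of a ligase for p27, of 0.43 (edgeR, adjusted p of 3.1e-04 and 1.2e-04). The kinase DYRK1A, which marks cyclin D1 for degradation, fell by 0.50, the CUL4 adaptor DDB1 by 0.22 and the SKP2 cofactor CKS1B by 0.18 in log2 fold change (with edgeR adjusted p of 1.1e-04, 2.6e-04 and 0.020). The call of CKS1B was lost with total counts, with upper-quartile scaling and without 2D-primed replicate 1 or 3D-primed replicate 4.

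Of 13 transcription factors known to act on G1 genes, 9 were higher in 2D-primed cells and 1 was lower there, with a median log2 fold change of -0.32 and 76.9% called, beside 63.9% of all genes tested. JUN, the AP-1 subunit that binds the CCND1 promoter, went from 181.8 to 285.6 CPM in 2D-primed libraries to 74.6 to 126 CPM in 3D-primed ones (edgeR, log2 fold change -1.26, SE 0.173, adjusted p = 1.0e-04). TCF7L2, which carries beta-catenin to its targets, and SP1 both fell, by 0.59 and 0.58 in log2 fold change (with edgeR adjusted p of 1.1e-05 and 2.7e-05). The immediate early gene EGR1 was higher in 3D-primed cells, with 37.0 to 70.8 CPM against 115 to 226 CPM (edgeR, log2 fold change 1.66, SE 0.247, adjusted p = 1.8e-04), and varied widely within both groups. MYC, singled out after its values were seen because the E-box is its binding sequence, had 206 ± 6.79 and 208 ± 8.85 CPM (edgeR, log2 fold change 0.02, adjusted p = 0.74).

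The genes downstream of E2F were mixed. Of 18 S-phase genes, 10 rose and 4 fell in 3D-primed cells, with a median log2 fold change of 0.17 and 77.8% called, beside 63.9% of all genes tested. The licensing factor CDC6 rose from 25.7 ± 2.40 to 49.2 ± 4.32 CPM (edgeR, log2 fold change 0.94, adjusted p = 2.7e-06), and the polymerase subunit POLA1 rose by 0.79 in log2 fold change (edgeR adjusted p = 5.2e-06). Cyclin A2 (CCNA2), the licensing factor CDT1 and thymidine kinase (TK1) fell by 0.37, 0.27 and 0.22 in log2 fold change (with edgeR adjusted p of 1.3e-04, 0.0026 and 0.016). Of 5 markers of cycling cells, 4 were higher in 2D-primed cells (beside 31.6% of all genes tested), led by MKI67 (-0.72), with TOP2A (-0.28), CCNB2 (-0.24) and CDK1 (-0.17) after it (edgeR, adjusted p of 2.3e-06, 1.5e-04, 0.0024 and 0.021), while CCNB1 was not called (-0.08, adjusted p = 0.16). Their summed level was 651.0 to 702.5 CPM in 2D-primed and 514 to 562 CPM in 3D-primed libraries, and its part in the changes of the G1 regulators was not tested. The call of CDK1 was lost with total counts and with upper-quartile scaling.

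**Figure D4:**
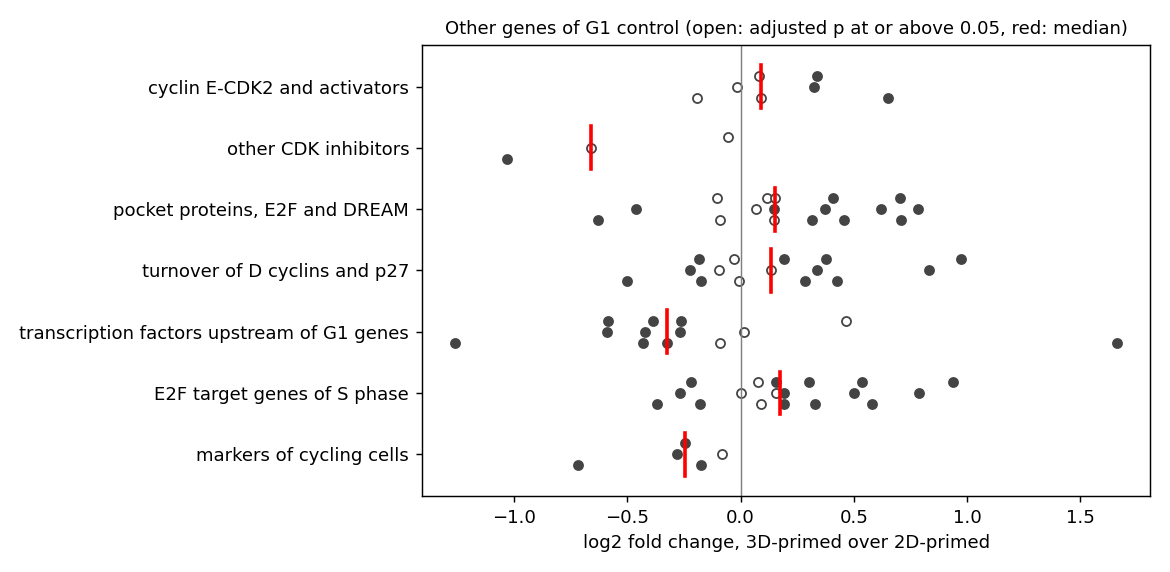
The log2 fold change of each tested gene in 7 lists of G1 control, 3D-primed over 2D-primed, filled where called and open where not, with the median of each list as a red line. The transcription factors lie mostly left of 0 (median -0.32) with EGR1 alone at the far right (1.66), and the E2F target genes lie on both sides (median 0.17).

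The genes most alike to each D-type cyclin in log2 CPM over the 8 libraries were PACS1 (Pearson's r = 0.998) and CDC14B (0.998) for CCND1, CLDND1 (0.990) and TMEM140 (0.985) for CCND2, and DEK (0.975) and CLSPN (0.968) for CCND3. They were picked from about 8724 genes with a symbol and at least 10 CPM, and all share the same 8 libraries and the same split into 2 groups. For CCND1, 1641 genes reached r of 0.95, for CCND2 63 and for CCND3 3.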

How the data were processed

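The authors sequenced polyadenylated RNA of the 8 cultures in read pairs, from libraries made with a directional kit. Salmon was run against Ensembl's GRCh38 cDNA set, with sums per gene from tximport. The estimated counts per gene were deposited as 1 table per library, not scaled to a common depth. The values were whole numbers, and the tximport setting is not given in the sources used here. Symbols, positions and exon lengths came from GENCODE v44 by Ensembl identifier (29661 of 38032 matched), and promoter sequences from RefSeq (GRCh38.p14), of which the part upstream of the start was read.

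Genes that reached 10 counts in 2 or more libraries were tested with edgeR 4.0.16 (TMM, glmQLFit, glmQLFTest) in R 4.3.3, with Benjamini-Hochberg adjustment over all 13943 genes and a threshold of 0.05. The standard error was taken as the log2 fold change over the square root of F. Levels per kb used the exon union. The members and lists were chosen with earlier results of these data known. The genes named were the 10 members, from each list the called genes with the 3 largest changes in each direction, all genes of lists of up to 5, and the 2 genes most alike to each D-type cyclin; other genes were named after their values were seen, and 1 gene that the rule names is not reported here. Alternatives were DESeq2 1.42.0, limma-voom (limma 3.58.1), other scalings and filters, leaving out each library, and the replicate number as a block. Figures were drawn in Python 3.11.15 with matplotlib 3.10.9.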

Additional observations from a re-analysis of the deposited data

Results flagged for a closer look

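Among 104 sets of 4 values of the named genes and ratios, 6 held a library far from the other 3 by Dixon's criterion, where chance alone gives about 1 in 20, or 5.2. None of the 10 members was among them. In 2D-primed cells, 1 library was high for CCNB2 (47.1 CPM against 42.9 to 43.3), for CDC25A (24.2 against 19.7 to 20.1) and for CDC6 (29.3 against 24.3 to 24.6). In the same group 1 library was low for CDH5 (3.67 CPM against 5.04 to 5.13) and for TTR (273.6 against 306 to 308). In 3D-primed cells, 1 library was low for CDKN2A (1.25 CPM against 1.55 to 1.59).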

How the results depend on the processing

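The calls and directions of CCND1, CCND2, CDK4, CDK6 and CDKN2D were the same in all 18 alternatives, and 5 members were called in every one except upper-quartile scaling. With upper-quartile scaling the members higher in 3D-primed cells numbered 3 in place of 1, since CDKN2C (0.17, adjusted p = 0.038) and CDKN1B (0.11, adjusted p = 0.037) were called in edgeR; over all alternatives their adjusted p ran from 0.038 to 0.35 and from 0.037 to 0.60. RB1 changed sign with total counts (0.026), upper-quartile scaling (0.048) and no filter (0.0038), and with single libraries left out it ran from -0.023 to 0.0125, with 0.0125 without 2D-primed replicate 3, 0.0040 without 2D-primed replicate 4, 0.0011 without 3D-primed replicate 1 and 0.0087 without 3D-primed replicate 2. CDKN2A changed sign without 2D-primed replicate 3 (0.12) and without 3D-primed replicate 3 (0.016), and ran from -0.20 to 0.12 over single libraries left out. With the longest transcript as length, CCND1 made up 97.8% and 95.6% of the D-type cyclins, and log2 of promoters over inhibitors was 2.02 and 1.76 in place of 2.33 and 1.96 in 2D-primed and 3D-primed cells; the length alone differs in that setting. The genes called over the whole table numbered 8357 to 9070, and 8490 with the replicate number as a block. Samples with the same number did not deviate together (correlations from -0.04 to 0.06), so the number was not taken to pair them, and the block left the calls of all 9 tested members as they were. CKS1B and CDK1 lost their calls as given above, SERPINA1 without a filter and with the block, and CCNB1 gained one without 3D-primed replicate 2. CDKN2B was called with limma-voom, with filterByExpr and without 3D-primed replicate 2. Depth limits CCND2, at 11 to 67 counts per library, and the reason for the 0 counts of CDKN1C was not tested.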
